A study of Rattus norvegicus with 6 samples.

Results

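The 10 genes described here are antioxidant targets of the transcription factor NRF2: Slc7a11, Gclc, Gclm, Gsr, Txnrd1, Srxn1, Gpx2, Nqo1, Hmox1 and Akr7a3. They were chosen by name, and all 10 were found among the 16209 rows of the deposited table. RNA was sequenced from 6 liver tissue samples of rats with liver fibrosis. The ginkgetin group (3 samples) was treated with ginkgetin, a biflavone found in plants, at 10 mg/kg/day, and the vehicle group (3 samples) received vehicle, so both groups carry the fibrosis and differ by the compound. The sources used here do not give strain, sex, age or length of treatment, and the labels do not say whether samples are separate animals, so the p-values below cover only the spread among the 6 samples. The comparison asks how ginkgetin treatment relates to the expression of these genes in the fibrotic liver.

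NRF2 (gene Nfe2l2) is held at low levels by KEAP1, which hands it to a CUL3 ubiquitin ligase for degradation. Oxidants and electrophiles disable KEAP1, and NRF2 then enters the nucleus, pairs with a small MAF protein and binds antioxidant response elements, whose core reads TGACNNNGC. Its targets make and recycle glutathione, reduce thioredoxin and peroxiredoxins, and clear quinones, aldehydes and heme. In liver this programme is known from the handling of drugs and carcinogens in hepatocytes.

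Promoter sequence is shown first because genes with the same core motif lay on opposite sides of the comparison. RefSeq windows of 300 bases (250 before to 50 after a start, build GRCr8, which is not the build of the deposited table) matched 8 of the 10 genes, with 9 windows because Txnrd1 has a pair of starts. Searched on both strands, TGACNNNGC was present in windows of 3 genes, Gclm, Txnrd1 and Gpx2, against 12.1% of all 33469 windows. The AP-1 motif TGACTCA, which can overlap it, was present in the window of 1 gene, Srxn1, and in 4.63% of all windows. The windows of the other 4 matched genes held neither string, which says only that these letters are not in these 300 bases. Capitals mark the match, which is on the opposite strand to the gene in each of the windows below, so it is printed as its reverse complement. The matches read TGACTAAGC in Gclm (chr2:213031885-213032184, + strand), beginning 172 bases before the start, TGACAAAGC in Txnrd1 (chr7:22755855-22756154, - strand), 78 bases before it, and TGACTTAGC in Gpx2 (chr6:101229984-101230283, - strand), 13 bases before it.
Gclm: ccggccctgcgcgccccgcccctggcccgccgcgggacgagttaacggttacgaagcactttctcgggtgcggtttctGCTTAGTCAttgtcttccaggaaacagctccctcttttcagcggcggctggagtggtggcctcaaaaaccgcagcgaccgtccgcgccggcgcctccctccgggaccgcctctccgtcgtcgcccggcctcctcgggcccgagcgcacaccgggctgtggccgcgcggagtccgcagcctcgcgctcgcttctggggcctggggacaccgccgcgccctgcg
Txnrd1: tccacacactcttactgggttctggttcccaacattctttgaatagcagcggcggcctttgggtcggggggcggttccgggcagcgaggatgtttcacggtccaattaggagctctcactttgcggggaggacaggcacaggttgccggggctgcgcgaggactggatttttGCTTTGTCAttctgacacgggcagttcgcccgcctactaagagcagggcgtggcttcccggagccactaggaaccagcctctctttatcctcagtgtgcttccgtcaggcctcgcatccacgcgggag
Gpx2: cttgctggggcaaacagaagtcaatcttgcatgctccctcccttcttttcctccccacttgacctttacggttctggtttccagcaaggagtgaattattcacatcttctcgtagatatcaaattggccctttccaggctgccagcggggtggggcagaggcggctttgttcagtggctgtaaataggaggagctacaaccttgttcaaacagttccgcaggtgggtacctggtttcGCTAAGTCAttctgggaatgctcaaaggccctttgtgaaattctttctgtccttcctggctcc

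Reads assigned to genes numbered 13372367 to 14933853 per library, and values below are normalized reads, that is reads divided by 1 factor per library. The value of 1 read ran from 0.614 in vehicle replicate 3 to 1.24 in ginkgetin replicate 3. The columns carrying the letters TAA are taken as the vehicle libraries and are numbered as in the table, and every direction rests on this. Vehicle replicate 3 stood apart: Alb, the albumin gene, held 2.89% of its reads, against 6.56% to 12.1% in the other 5 libraries. Results that rest on it are given with and without it. Levels are not compared between genes, because the values are not scaled by transcript length.

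The 10 NRF2 targets differed in direction. Their means of log2(value + 1), called log2 means below, were higher with ginkgetin in 6 genes (Gclm, Akr7a3, Txnrd1, Gclc, Srxn1 and Gsr) and lower in 4 (Gpx2, Slc7a11, Nqo1 and Hmox1), where 48.6% of all genes tested had higher and 51.4% lower log2 means, and the same split held without vehicle replicate 3. With libraries scaled to equal totals, which moves the median of all genes to -0.53 on the log2 scale, Srxn1 and Gsr came out lower, and Gsr also did so with quantile scaling. In limma, 0 of the 10 passed a Benjamini-Hochberg adjusted p of 0.05, where 0.0137% of the 14639 genes tested did. At an unadjusted p of 0.05 there were 4 genes, against 20.2% of all genes: Gclm and Txnrd1 higher, as 7% of all genes were, and Gpx2 and Nqo1 lower, as 13.2% were. Without vehicle replicate 1 there were 7 of the 10, where 4123 of all genes reached it, and with equal library totals 2, where 3302 did. Gclm, Txnrd1, Gpx2 and Nqo1 were also the genes whose ginkgetin and vehicle values did not overlap, against 27.4% of all genes (11.4% higher and 16.1% lower). The median log2 fold change of the 10 was 0.10, and it was -0.02 over all genes tested. The median of the 10 was -0.16 without ginkgetin replicate 2, -0.09 without vehicle replicate 1 and -0.41 with equal library totals. On whole reads edgeR called 0 of the 10 (0% of all genes) and DESeq2 called 3 (Gclm, Gpx2 and Hmox1), where DESeq2 called 9.39% of all genes. Without vehicle replicate 3 DESeq2 called 2 (Gclm and Gpx2), where it called 5.02%.

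**Figure D1:**
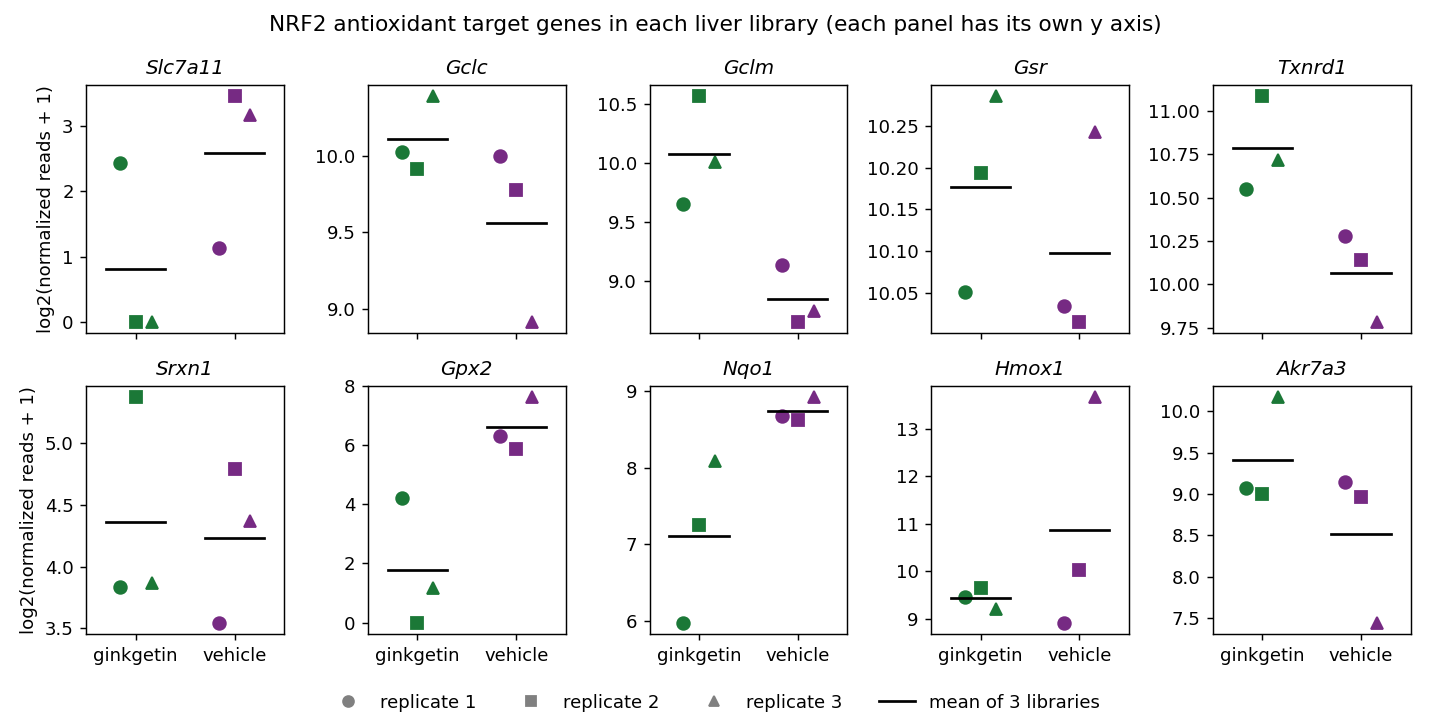
Level of each gene in each library, as log2(normalized reads + 1) on an axis of its own per panel, with 3 ginkgetin libraries on the left, 3 vehicle libraries on the right and a line at the mean of each group. In Gclm and Txnrd1 the ginkgetin points all lie above the vehicle points, in Gpx2 and Nqo1 all below, and in Hmox1 a single vehicle library at 13017 normalized reads lies far above the rest.

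Glutathione is made from cysteine, glutamate and glycine, and the set covers its first steps. Slc7a11 encodes the cystine carrier of system xc-, which imports the cysteine source. It was barely expressed, with 4, 0 and 0 reads in ginkgetin replicates 1 to 3 and 1, 12 and 13 in vehicle replicates 1 to 3. Vehicle replicate 1 lies below ginkgetin replicate 1, so the groups overlap. Pooled over libraries and scaled, the reads with ginkgetin were 0.219 times those with vehicle (exact 95% interval 0.0556 to 0.632, counting error only), and the limma log2 fold change was -1.77 (SE 0.975, adjusted p = 0.334). That size depends on the value added before taking logs, being -2.31 with 0.5 and -0.49 with 10 in place of 1. It was -2.58 without ginkgetin replicate 1, -2.50 without vehicle replicate 1 and -1.48 without vehicle replicate 3.

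Gclm, the modifier subunit of glutamate-cysteine ligase, which raises the activity of the enzyme that makes the first bond of glutathione, had 803, 1514 and 1027 normalized reads in the ginkgetin livers, against 562, 401 and 427 in the vehicle livers. Every ginkgetin value lies above every vehicle value, with ginkgetin replicate 2 the highest and vehicle replicate 2 the lowest. The means were 1115 ± 364 with ginkgetin and 463 ± 86.6 with vehicle (SD, n = 3 each), a ratio of 2.41. Its log2 fold change of 1.23 (SE 0.289) was the largest of the 10 genes on the higher side, with a limma adjusted p of 0.101. It stayed between 0.98 and 1.44 with any 1 library left out, and was 0.71 with equal library totals. DESeq2 on reads called Gclm (adjusted p = 0.00691, and 0.0181 without vehicle replicate 3). Over the alternative settings its adjusted p ran from 0.00691 to 0.304.

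Gclc, the catalytic subunit of the same enzyme, had 1040, 961 and 1337 normalized reads with ginkgetin and 1020, 877 and 482 with vehicle. Vehicle replicate 1 lies within the ginkgetin range and vehicle replicate 3 is low, at less than any other library. Its log2 fold change of 0.54 (SE 0.325, limma adjusted p = 0.367) was 0.22 without vehicle replicate 3 and 0.02 with equal library totals. The ratio of Gclm to Gclc values within a library was 0.772, 1.58 and 0.768 with ginkgetin and 0.551, 0.457 and 0.885 with vehicle. The groups overlap in this ratio through vehicle replicate 3, and an exact two-sided permutation test gave p = 0.3, where the smallest possible for 3 against 3 is 0.1. The mean log2 ratio with ginkgetin minus that with vehicle was 0.69, and 0.96 without vehicle replicate 3. This ratio is 1 of 4 computed, all chosen after the values were seen (Benjamini-Hochberg adjusted p = 0.3 over the 4, exact permutation). For Hmox1 to Gclm, not described further, that difference was -2.66, and -1.21 without vehicle replicate 3 (exact permutation p = 0.2).

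The reductases of the thiol systems use NADPH to keep glutathione and thioredoxin reduced. Gsr, glutathione reductase, was nearly level at 1060, 1170 and 1247 normalized reads with ginkgetin and 1047, 1034 and 1210 with vehicle (log2 fold change 0.08, SE 0.227, limma adjusted p = 0.858). Txnrd1, the cytosolic thioredoxin reductase, a selenoprotein, had 1497, 2173 and 1684 with ginkgetin and 1242, 1128 and 880 with vehicle. All ginkgetin values of Txnrd1 exceed all vehicle values, the closest pair being ginkgetin replicate 1 and vehicle replicate 1. Its means were 1784 ± 349 with ginkgetin and 1083 ± 185 with vehicle (SD, n = 3 each), and its log2 fold change of 0.72 (SE 0.274, limma adjusted p = 0.203) was 0.57 without vehicle replicate 3 and 0.20 with equal library totals. RefSeq places other genes within the Txnrd1, Gsr and Hmox1 loci, among them Eid3 at Txnrd1, and with the strand setting not given their reads cannot be told apart here.

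The ratio of Txnrd1 to Gsr values set these reductases against each other within each library. It was 1.41, 1.86 and 1.35 with ginkgetin and 1.19, 1.09 and 0.727 with vehicle, so the groups did not overlap. The mean log2 ratio differed by 0.64, and by 0.42 without vehicle replicate 3. The exact permutation test gave p = 0.1, which 3 against 3 cannot go below, and 0.2 after adjustment over the 4 ratios. Txnrd1 values already did not overlap and Gsr was nearly level, so this test adds little to the Txnrd1 values. The adjustment does not cover the choice of ratios after the values were seen. Srxn1, sulfiredoxin, which repairs overoxidised peroxiredoxins, had few reads: 13.3, 40.5 and 13.6 normalized reads with ginkgetin and 10.7, 26.6 and 19.6 with vehicle. Replicate 2 is the highest of each group, and the log2 fold change of 0.13 (SE 0.629, limma adjusted p = 0.921) turned to -0.38 without ginkgetin replicate 2 and to -0.22 without vehicle replicate 1.

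Gpx2 encodes the glutathione peroxidase first described in the gut epithelium, a selenoprotein that reduces hydrogen peroxide. It had 17.7, 0 and 1.24 normalized reads in the ginkgetin livers (16, 0 and 1 reads) and 78.3, 57.4 and 196 in the vehicle livers (66, 69 and 320 reads). The ginkgetin libraries all lie below the vehicle libraries, and vehicle replicate 3 is the highest. Pooled and scaled, the reads with ginkgetin (17) were 0.0533 times those with vehicle (455), with an exact 95% interval of 0.0308 to 0.0862 for counting error only. The log2 fold change of -4.81 (SE 1.06, limma adjusted p = 0.0951) was the lowest of the 10. It was -4.29 without vehicle replicate 3 and between -6.02 and -3.91 over all single libraries left out, and -2.87 with 10 in place of 1 added before logs. DESeq2 on reads called it (adjusted p = 0.0036, and 0.0323 without vehicle replicate 3), and over the alternative settings its adjusted p ran from 0.0036 to 0.289.

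Markers of cholangiocytes, the epithelial cells of the bile ducts, lay on the same side as Gpx2. All 8 of those examined had lower log2 means with ginkgetin, with log2 fold changes from -4.86 to -1.88, and none was at 0 in a whole group. Their summed normalized reads were 784, 395 and 319 with ginkgetin and 2049, 2443 and 21056 with vehicle. In both these sums and Gpx2, ginkgetin replicate 1 was the highest of its group and vehicle replicate 3 the highest of all. Not every marker followed the sum, as Cftr was at 243 in vehicle replicate 2 and 220 in vehicle replicate 3. Epcam was at 783, 1106 and 1277 in vehicle replicates 1 to 3, and Cldn4 at 460 in vehicle replicate 3. Most of the sum of 21056 there thus lay in other markers of the list. Ginkgetin replicate 1 and vehicle replicate 3 were also highest of their groups in the macrophage sums given below and in summed neutrophil markers. These were 244, 49.8 and 174 with ginkgetin and 387, 352 and 1278 with vehicle, with lower log2 means in all 5. In bulk tissue fewer cells of a type and less RNA per cell cannot be told apart. The part of any of these markers in the Gpx2 difference was not tested.

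The remaining members clear quinones, heme and aldehydes. Nqo1, NAD(P)H quinone dehydrogenase 1, which reduces quinones without passing through a radical and is a standard readout of NRF2 activity, had 61.9, 152 and 271 normalized reads with ginkgetin, against 408, 395 and 486 with vehicle. The vehicle libraries lie close together and above all ginkgetin libraries, which differ widely among themselves. The means were 161 ± 105 with ginkgetin and 430 ± 48.9 with vehicle (SD, n = 3 each), with a log2 fold change of -1.64 (SE 0.481, limma adjusted p = 0.139). That value was -1.55 without vehicle replicate 3 and between -2.13 and -1.07 with any 1 library left out, the extremes coming from leaving out ginkgetin replicates 3 and 1. DESeq2 gave an adjusted p of 0.0661.

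Nqo1 and Txnrd1 therefore stood on opposite sides although both are listed as NRF2 targets. The ratio of Nqo1 to Txnrd1 values was 0.0414, 0.0698 and 0.161 with ginkgetin and 0.329, 0.35 and 0.552 with vehicle, with no overlap between the groups. The mean log2 ratio with ginkgetin minus that with vehicle was -2.37, and -2.13 without vehicle replicate 3. The exact permutation test again gave p = 0.1, the lowest value 3 against 3 allows, and 0.2 after adjustment over the 4 ratios. With all Nqo1 values lower and all Txnrd1 values higher in the ginkgetin group, this ratio could not overlap. The test outcome was therefore fixed by the values of the 2 genes and adds nothing to them. A factor per library cancels in this ratio, whereas quantile scaling does not.

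Hmox1, heme oxygenase 1, which degrades heme to biliverdin, iron and carbon monoxide and is high in macrophages that clear red cells, had 703, 797 and 590 normalized reads with ginkgetin and 483, 1035 and 13017 with vehicle. The groups overlap, and vehicle replicates 1 and 2 lie on either side of all ginkgetin values. The log2 fold change of -1.43 (SE 1.03, limma adjusted p = 0.45) was -0.03 without vehicle replicate 3, but -2.41 with vehicle replicate 1 left out. The DESeq2 call on Hmox1 (adjusted p = 0.042) went to an adjusted p of 0.924 without vehicle replicate 3. Summed macrophage markers were 9644, 7026 and 4690 normalized reads with ginkgetin and 7654, 5652 and 54942 with vehicle. The library that was high in Hmox1 thus also had the highest sum. Single markers differed, as Cd68, Adgre1, Csf1r and Cd163 were highest in that library and Clec4f was lowest in it. Of 10 macrophage markers, 6 had lower and 4 higher log2 means with ginkgetin, and none was at 0 in a whole group. Their part in the Hmox1 values was not tested.

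Akr7a3, an aldehyde reductase that in rat detoxifies the dialdehyde of aflatoxin, had 537, 510 and 1152 normalized reads with ginkgetin and 565, 497 and 174 with vehicle. Vehicle replicates 1 and 2 lie beside ginkgetin replicates 1 and 2, ginkgetin replicate 3 is high and vehicle replicate 3 low. The log2 fold change of 0.90 (SE 0.498, limma adjusted p = 0.338) was 0.36 without vehicle replicate 3 and 0.38 with equal library totals.

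**Figure D2:**
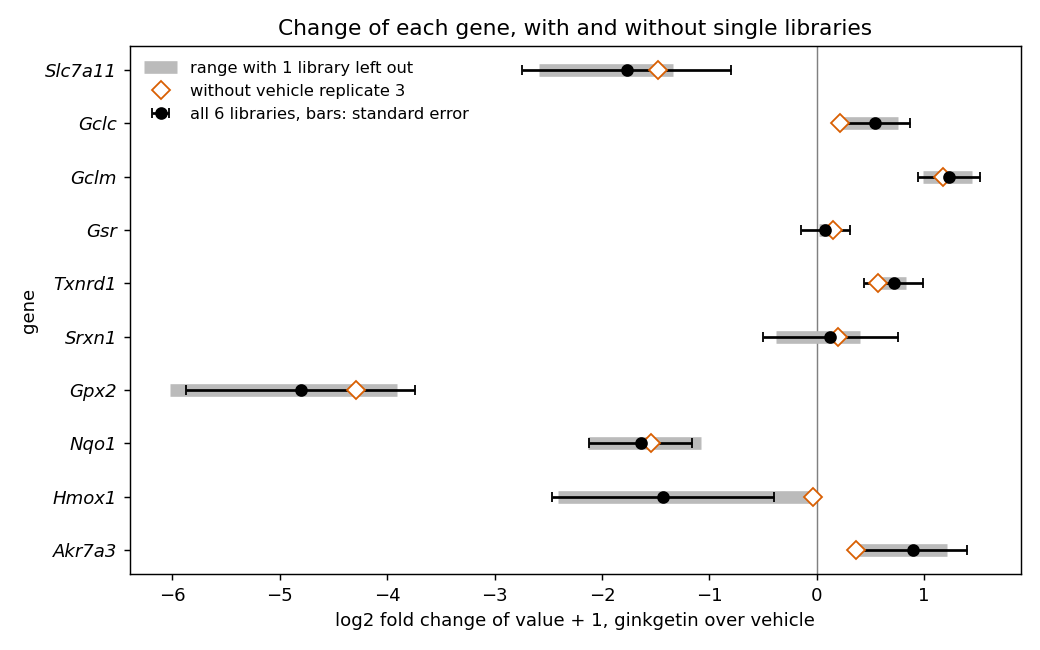
Log2 fold change of each gene, ginkgetin over vehicle, on log2(value + 1) with standard errors (black), the value without vehicle replicate 3 (open diamonds) and the range over fits with 1 library left out (grey bars). With 1 library left out only Srxn1 changes sign. Gclm stays at or above 0.98, and Gpx2, Nqo1 and Slc7a11 at or below -1.07. Hmox1 goes to -0.03 and Gclc to 0.22 without vehicle replicate 3.

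Vehicle replicate 3 differed from the mean of vehicle replicates 1 and 2 in a different direction for different members. On the log2 scale Hmox1 was higher in it by 4.20, Gpx2 by 1.54 and Slc7a11 by 0.87, while Akr7a3 was at -1.60 and Gclc at -0.97. Gclm (-0.15), Gsr (0.22), Srxn1 (0.20) and Nqo1 (0.27) were nearer to 0, and Txnrd1 was at -0.43. Summed hepatocyte markers were 1543504, 2419146 and 2419745 normalized reads with ginkgetin and 1898943, 1176010 and 316929 with vehicle, and 10 of 10 had higher log2 means with ginkgetin (median log2 fold change 1.25, and 0.54 without vehicle replicate 3). The part of hepatocyte content in the Akr7a3 and Gclc values was not tested.

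**Figure D3:**
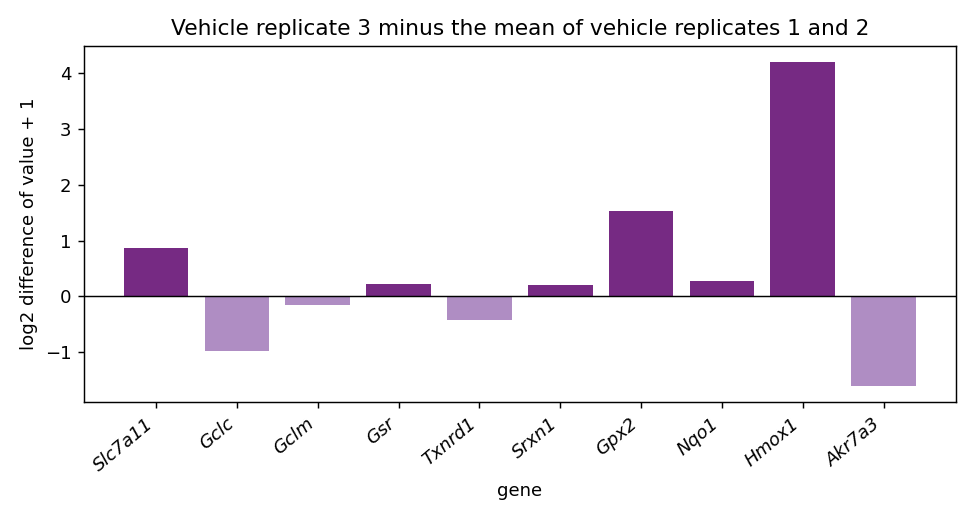
Difference of log2(value + 1) between vehicle replicate 3 and the mean of vehicle replicates 1 and 2, for each gene. Hmox1 stands out at 4.20 and Akr7a3 is the lowest at -1.60.

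Among the genes that control NRF2, Nfe2l2 itself had 1744, 1060 and 1162 normalized reads with ginkgetin and 970, 1253 and 1501 with vehicle, fully overlapping (log2 fold change 0.08, SE 0.299, limma adjusted p = 0.896). Keap1 had 925, 1046 and 1007 with ginkgetin and 816, 876 and 716 with vehicle (0.31, SE 0.215, adjusted p = 0.436, limma), without overlap. Bach1, a repressor that competes for the same elements, was at 0.62 (SE 0.501, adjusted p = 0.502, limma). Of 11 regulators tested, 8 had higher and 3 lower log2 means, at a median log2 fold change of 0.27, and 0 passed in limma. With equal library totals 3 had higher and 8 lower log2 means, at a median of -0.24. DESeq2 called 1 (Maff), against 9.39% of all genes, and 0 without vehicle replicate 3, against 5.02%. Leading by p were Maff (-1.15) and Mafg (0.66), small MAF partners of NRF2, which lay on opposite sides, and Cul3 (0.72), the scaffold of the ligase that KEAP1 serves.

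Other NRF2 targets also had log2 means on both sides. Of 26 listed, 23 were in the table and were tested, 14 with higher and 9 with lower log2 means (median 0.24, and 0.09 without vehicle replicate 3). That median turned to -0.07 with quantile scaling and -0.28 with equal library totals. Cbr1, 1 of the 9 counted as lower, had 0, 3 and 0 reads with ginkgetin and 4, 2 and 1 with vehicle. Its direction cannot be read. In limma 0 passed, and 2 did without vehicle replicate 1 (Ugdh and Abcc2), where 4.75% of all genes did. Ugdh, which makes UDP-glucuronic acid for conjugation, had 1380, 1924 and 2289 normalized reads with ginkgetin and 773, 606 and 626 with vehicle (1.46, SE 0.273, limma adjusted p = 0.0804). Abcc2, the canalicular export pump for glutathione and glucuronide conjugates, was at 2.52 (1.56 without vehicle replicate 3, and 3.15 without vehicle replicate 1), and Abcc3, its basolateral relative, at -1.79, so these 2 exporters lay on opposite sides. Idh1, a cytosolic NADPH source, was at 1.08. Groups did not overlap in 9 of the 23, against the 27.4% of all genes, and DESeq2 called 6, against the 9.39%. Without vehicle replicate 3 it called 4 (Ugdh, Abcc2, Abcc3 and Idh1), against 5.02% of all genes.

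Glutathione enzymes outside the set lay on both sides. Of 18 tested, 11 had higher and 7 lower log2 means, with a median of 0.10 that turned to -0.10 with quantile scaling and -0.42 with equal library totals. In limma 0 passed, and 1 did without vehicle replicate 3 (Chac1), where 0.574% of all genes did. Without vehicle replicate 1 there were 2 (Gpx3 and Hagh), where 4.75% of all genes passed. DESeq2 called 5 (Ggt1, Gpx1, Gpx3, Gpx8 and Chac1), against the 9.39% of all genes. Without vehicle replicate 3 it called these except Gpx8, against 5.02% of all genes. On the lower side were Gpx3 (-3.07, with -2.23 without vehicle replicate 3 and -3.66 without vehicle replicate 1), the secreted peroxidase, Ggt1 (-2.22), which cleaves extracellular glutathione, and Gpx7 (-2.65, and -1.60 without vehicle replicate 3), a peroxidase of the endoplasmic reticulum. On the higher side was Hagh (1.46, with 0.94 without vehicle replicate 3 and 2.07 without vehicle replicate 1), the glyoxalase that releases glutathione. Ggt1 had 36.5, 16.2 and 8.66 normalized reads with ginkgetin and 84.2, 96.5 and 74.3 with vehicle. Gpx4, a peroxidase that most cells need, was listed at 0 to 7.49 in every library, so the direction of this gene, 1 of the 7 counted as lower, cannot be read. Gpx3 had 825, 251 and 270 normalized reads with ginkgetin and 1420, 2271 and 10312 with vehicle, and Gpx7 had 45.3, 25.5 and 14.8 with ginkgetin and 80.7, 79.8 and 730 with vehicle, so both were highest in vehicle replicate 3. Summed markers of myofibroblasts and stellate cells, the matrix-forming cells of fibrosis, were 5396, 6278 and 3267 with ginkgetin and 11311, 13281 and 122042 with vehicle, and also highest there. Of these 8 markers 7 had lower log2 means with ginkgetin (median -2.32, and -1.27 without vehicle replicate 3), none was at 0 in a whole group, and their part in the Gpx3 and Gpx7 values was not tested.

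Among antioxidant enzymes not classed with the NRF2 targets, 17 of 20 tested had higher and 3 lower log2 means with ginkgetin (median 0.40, and 0.35 without vehicle replicate 3), where 48.6% of all genes had higher log2 means, but the median was -0.12 with equal library totals. In limma 0 passed, and 1 did without vehicle replicate 1 (Sesn2), where 4.75% of all genes did. DESeq2 called 1 (Sod3), against 9.39% of all genes, and 0 without vehicle replicate 3, against 5.02%. The hepatocyte markers given above also had higher log2 means in 10 of 10. Cat, catalase, named after its values were seen, had 34943, 45649 and 55680 normalized reads with ginkgetin and 35327, 13483 and 3967 with vehicle, lowest in vehicle replicate 3 as those markers were, and their part in the values of this list was not tested. Sod3, the extracellular superoxide dismutase, had 645, 622 and 532 normalized reads with ginkgetin and 424, 323 and 337 with vehicle (0.74, SE 0.214, limma adjusted p = 0.137). Hmox2, the constitutive heme oxygenase, was at 0.59 and Txnrd2, the mitochondrial thioredoxin reductase, at 0.56, both without overlap between groups. Txnip, which binds and inhibits thioredoxin, was among the 3 lower ones, at -0.93, with 1354, 1607 and 1176 with ginkgetin and 1658, 3412 and 3118 with vehicle.

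**Figure D4:**
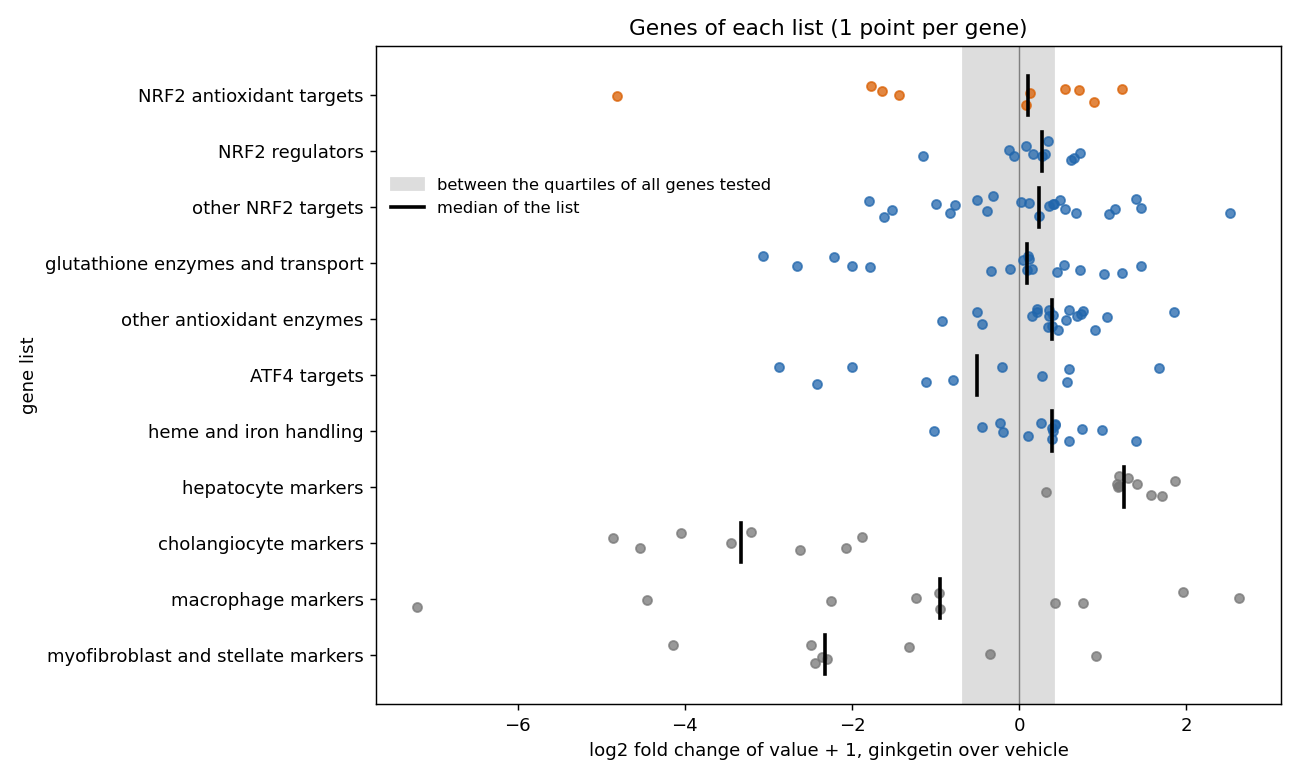
Log2 fold change of each gene, ginkgetin over vehicle, by gene list, with the median of each list (black line) and the range between the quartiles of all genes tested (grey band). The 10 NRF2 antioxidant targets (orange) spread from -4.81 to 1.23 around a median of 0.10, and the cholangiocyte markers lie between -4.86 and -1.88.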

How the data were processed

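The data are 1 table with 16209 rows (genes) and 6 sample columns. The deposited values are a signal, normalized reads per gene, made by the authors. Per the submitters' processing notes, the build was mRatBN7.2. Not given in the sources used here were the aligner, counter, annotation, strand setting and kind of normalization. A SMARTER mRNA-Seq kit was used on total RNA, per the labels' protocols. Of the values, 99.7% were whole multiples (within 0.02) of the smallest positive value of their library, so whole reads were recovered, and 53 rows that were not whole were rounded. The letters TAA are not in the labels, and those 3 columns were taken as vehicle because no other group remains. Libraries of a group differed by a chi-square of 42.7 or more per degree of freedom, so none was a duplicate.

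As these are normalized values, limma 3.58.1 (R 4.3.3) was used as the main test, with trend and robust moderation, on log2(value + 1). Genes reaching a value of 1 in at least 3 libraries were tested, with Benjamini-Hochberg adjustment over the 14639 genes tested. Log2 fold changes of genes with few reads depend on this scale, in either direction. Slc7a11 was at -1.77, against -2.10 with DESeq2 on reads, and Gpx2 at -4.81, against -4.12. edgeR 4.0.16 and DESeq2 1.42.0 on reads, other scalings, filters and added values, and libraries left out were alternatives. The procedure was tested on simulated data. Named genes were the 10 members, Nfe2l2, Keap1, Bach1, up to 4 genes with the smallest p per pathway list, and the 3 genes (mean of at least 100) most correlated with the highest and lowest members. Members and lists were chosen with earlier results of these data known, so lists are described by counts and medians. List symbols were matched as symbols or RefSeq synonyms.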

Additional observations from a re-analysis of the deposited data

How the results depend on the processing

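Over 17 alternative settings, 158 of 168 recomputed log2 fold changes of the 10 genes with an adjusted p kept their direction and their side of the threshold. The exceptions were Srxn1, at -0.37 with equal library totals and between -0.38 and 0.40 with 1 library left out, Gsr, at -0.18 with quantile scaling and -0.44 with equal library totals, and the DESeq2 calls. The replicate block, the other filters and the fit without trend and robust moderation leave each log2 fold change as it was, so direction could not change there. Directions counted as kept include Hmox1 at -0.03 without vehicle replicate 3 and Gclc at 0.02 with equal library totals. Of the 10 genes 0 passed in limma, edgeR or with any 1 library left out, 3 passed with DESeq2 and 2 with DESeq2 without vehicle replicate 3, a setting chosen after seeing the data. At an unadjusted p of 0.05 there were 4 in limma, 5 in edgeR, 2 with equal library totals and 3 to 7 with 1 library left out. Among all 14639 genes tested these counts were 2963 in limma, 2915 in edgeR and 1745 to 4123 with 1 library left out. With equal library totals the count was 3302 of 14726. The 7 came without vehicle replicate 1, the setting with 4123. The median of the 10 was -0.41 with equal library totals and ran from -0.16 to 0.27 with 1 library left out. Over all genes 2 passed in limma, 0 with 10 in place of 1 added before logs, 1 with quantile scaling, 94 with equal library totals, 27 without trend and robust moderation, 0 with edgeR (2915 at an unadjusted p of 0.05), 1375 with DESeq2 and 735 with DESeq2 without vehicle replicate 3. That count was 0 to 696 with 1 library left out, 696 without vehicle replicate 1 and 84 without vehicle replicate 3. The cause was not tested.

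The labels share replicate numbers between groups without saying that they pair samples, and the vehicle numbers come from the column names alone. Deviations from the group means of same-numbered libraries correlated at -0.16, 0.03 and -0.21 across genes, so the numbers were not taken as pairs. With the replicate number as a block, 0 genes passed in limma (2382 at an unadjusted p of 0.05), and none of the 10. Slc7a11 and Srxn1 in all libraries and Gpx2 in the ginkgetin libraries had few reads, which limits their precision.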

Other observations

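Genes induced by ATF4, the stress factor that also acts on Slc7a11, were mixed. The list includes Atf4 itself, which is counted among the higher ones (log2 fold change 0.60). Of 10 tested, 4 had higher and 6 lower log2 means in the ginkgetin livers, and the median log2 fold change was -0.50 (-0.04 without vehicle replicate 3). In limma 0 passed, and 1 did without vehicle replicate 3 (Chac1, also counted in the glutathione list), where 0.574% of all genes did. Without vehicle replicate 1 there were 2 (Phgdh and Psat1), where 4.75% of all genes passed. DESeq2 called 5 (Atf4, Trib3, Psat1, Phgdh and Chac1), against the 9.39% of all genes. Without vehicle replicate 3 it called these except Atf4, against 5.02% of all genes. Phgdh, the first enzyme of serine synthesis, had 29.9, 35.9 and 14.8 normalized reads with ginkgetin and 97.3, 326 and 220 with vehicle (-2.87, SE 0.539, limma adjusted p = 0.0804), and Psat1, the next enzyme, was at -2.42 (-3.02 without vehicle replicate 1). Trib3, a pseudokinase, lay on the other side, with 116, 194 and 122 with ginkgetin and 46.3, 56.6 and 31.3 with vehicle (1.67, SE 0.38, limma adjusted p = 0.0976). Chac1, which breaks down glutathione, had 40.9, 53.2 and 32.2 with ginkgetin and 406, 299 and 38.7 with vehicle, so it was high in vehicle replicates 1 and 2 but not in vehicle replicate 3. Its log2 fold change was -2.0, -3.05 without vehicle replicate 3 (limma adjusted p = 0.029) and -1.37 without vehicle replicate 1.

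Of 15 tested genes of heme and iron handling, 11 had higher and 4 lower log2 means (median 0.39, with 0.23 without vehicle replicate 3 and -0.13 with equal library totals), and 0 passed in limma. DESeq2 called Fech, where it called 9.39% of all genes, and without vehicle replicate 3 also Cd163 and Tfrc, where it called 5.02%. Fech, which inserts iron in the last step of heme synthesis, had 1214, 959 and 1284 normalized reads with ginkgetin and 706, 520 and 513 with vehicle (0.995, SE 0.243, limma adjusted p = 0.107). Alas1, the first step, had 919, 4915 and 2242 with ginkgetin and 1568, 744 and 472 with vehicle, so the groups overlap, and its 1.40 became 0.81 with ginkgetin replicate 2 left out, or 2.02 with ginkgetin replicate 1 left out. Alad, the next, was at 0.75. Slc48a1, a heme transporter of lysosomes, was at -1.02 (-0.41 without vehicle replicate 3), and like Hmox1 was highest in vehicle replicate 3, at 1455 normalized reads.

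The genes whose levels followed Gclm most closely over the 6 libraries were Neo1, Cox5a and Tbl1xr1 (Pearson r = 0.996, 0.996 and 0.995, the highest of many genes compared), and those closest to Gpx2 were Ube2e2, Adamts10 and Ybx1 (r = 0.995, 0.990 and 0.989). These are descriptions of 6 libraries that fall into 2 groups, with no test.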
